A study of Bos taurus with 30 samples.

Results

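In 3 pools of 8-cell bovine embryos whose transcription had been blocked, 6425 regions of open chromatin were called that were absent from the peak lists of all 3 untreated 8-cell pools. These TBE-only regions (TBE, transcription blocked embryos) came from merging the peaks of the 6 8-cell libraries wherever they shared at least 1 bp. A merged region was taken when a peak of each of the 3 TBE libraries overlapped it and no peak of the 3 control libraries did. The merge gave 389625 regions, so the TBE-only regions made up 1.65% of them. The opposite pattern, peaks of all 3 control libraries and of no TBE library, held for 38874 regions or 9.98%, called control-only regions here. A further 20209 regions had peaks in all 6 libraries. The lists differed in length. Cut to equal length, at 50090 peaks each, they gave 8335 TBE-only and 17334 control-only regions among 133593 merged regions. The TBE-only regions were thus chosen by the presence and absence of 8-cell peaks, and their 8-cell values are given below as a description with no test.

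The study profiled open chromatin by ATAC-seq in 30 libraries, 3 for each of 10 groups of bovine cells. Embryos were produced in vitro with frozen semen from a Holstein bull, and each oocyte or embryo library was a pool of at least 500 cells, with 3 separate collections for each stage. Embryos for the TBE libraries received α-amanitin at 50 µg/ml in the culture medium from day 1. Control embryos of the same collections were cultured beside them without it. The 2-cell pairs of groups were taken 30 to 32 h after insemination, the 4-cell pairs at 2 days and the 8-cell pairs at 3 days. The untreated groups without a blocked counterpart were germinal vesicle (GV) oocytes taken before maturation, morulae at 5 days, inner cell mass (ICM) isolated by immunosurgery from blastocysts at 7 days, and embryonic stem cells (ESC) from lines cultured on mouse feeder cells. Each embryo library averages over the embryos of a pool, so a region open in few embryos and a region weakly open in all cannot be told apart.

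ATAC-seq uses a transposase that cuts DNA not shielded by nucleosomes, so stretches with many cuts mark accessible chromatin, most often promoters, enhancers and other regulatory sequence. The early embryo starts out with chromatin and RNA inherited from the oocyte and later begins its own transcription, which in cattle takes its main step at about the 8-cell stage. α-Amanitin binds RNA polymerase II and stops its elongation, which leaves the embryo with the transcripts and proteins of the oocyte.

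The 6 8-cell lists differed in length, and the list of 8-cell TBE replicate 2 stood apart. It held 247513 peaks over 194 Mb, against 90890 peaks over 62.4 Mb in TBE replicate 1 and 50090 peaks over 24.5 Mb in TBE replicate 3. The control lists held 125253, 128958 and 156569 peaks. The number of TBE-only regions depended most on the shortest list, that of TBE replicate 3. Without TBE replicate 3 the same rule took 29655 regions, without TBE replicate 1 it took 11217, and without TBE replicate 2 it took 7174.

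The cutoff of the rule left many near neighbours. Just outside it, 28537 regions had a peak in exactly 2 TBE libraries and in no control library. Of these, 83.4% had a peak in TBE replicate 1, 97.9% in TBE replicate 2 and 18.7% in TBE replicate 3. Another 3109 regions had peaks in all 3 TBE libraries and in exactly 1 control library, which was replicate 1 for 39.3%, replicate 2 for 23.4% and replicate 3 for 37.3%. The single control peak at those regions had a median fold enrichment of 3.11, 3.10 and 3.41 in the 3 control libraries, below the medians of 4.24, 4.27 and 4.77 at control-only regions. Control-only regions need a peak in all 3 control lists, so this order was partly set by the rule. Over all merged regions with a peak of the library, the medians were 3.86, 3.82 and 4.06. Fold enrichment here is the reads under a peak divided by the local background, as the peak caller gave it.

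TBE-only regions stood differently in each TBE list. Their median fold enrichment was 3.53 in TBE replicate 1, 2.80 in replicate 2 and 3.67 in replicate 3. Over the whole lists the medians were 3.37, 2.49 and 3.79, so the typical region lay a little above the middle of the list in replicate 1 and a little below it in replicate 3. In replicate 2 it lay above 2.79, the value that 75% of that list stayed under. The highest single value was 10.0 in replicate 1, 7.55 in replicate 2 and 9.45 in replicate 3, below the list maxima of 19.4, 17.3 and 19.2. A fold enrichment of 5 or more was reached at 492 TBE-only regions in replicate 1, 110 in replicate 2 and 570 in replicate 3. That was 7.66%, 1.71% and 8.87% of them, against 7.74%, 0.464% and 18.0% of all peaks of the 3 lists.

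The 3 TBE libraries ranked the regions alike only in part. Across the 6425 regions, Spearman's rho of fold enrichment was 0.70 between replicates 1 and 2, 0.40 between replicates 1 and 3 and 0.40 between replicates 2 and 3. Regions are not independent replicates, and the values share a library on each axis. Each library had a single peak in nearly all of the regions, with more than 1 peak in 128, 64 and 38 of them.

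TBE-only regions were wider than the average merged region. Their median width was 951 bp, with the middle of the distribution from 523 to 1470 bp and a range of 211 to 5310 bp. All merged regions had a median of 598 bp, control-only regions 596 bp and regions of all 6 lists 1680 bp. A merged region that needs peaks from several lists grows with each of them, so width was not independent of the rule. The median share of a TBE-only region covered by peaks was 70.5% for TBE replicate 1, 95.7% for replicate 2 and 44.6% for replicate 3. Together the regions spanned 7.02 Mb. Wider regions had lower fold enrichment, with a rho of −0.40 across the 6425 regions.

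The strongest TBE-only regions were short. Of the 10 with the highest mean fold enrichment, 9 were between 279 and 448 bp wide and 3 lay on unplaced scaffolds. The strongest of all was chr1:104845676-104846075 (ARS-UCD1.2), 400 bp wide, with fold enrichments of 9.30, 7.55 and 7.17 in TBE replicates 1 to 3 and a mean of 8.00 ± 1.14 (SD, n = 3). It also had a peak in all 3 4-cell control libraries, in 1 4-cell TBE library, in 2 morula libraries and in 1 ESC library. The region chr7:107416643-107417074 followed, with 8.82, 5.74 and 8.50. It recurred in 2 4-cell control, 2 4-cell TBE, 1 morula and all 3 ICM libraries. Both regions were thus open in untreated embryos on either side of the 8-cell stage.

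Some other strong regions had no counterpart in the series, and others recurred in part of it. The region chr10:79717256-79717610 had fold enrichments of 6.86, 6.29 and 7.96, and chr15:36321586-36322033 had 6.94, 6.49 and 7.51. Neither was overlapped by a peak in any of the other 24 libraries, and the nearest 8-cell control peaks lay 1099 and 9336 bp away. The region chr14:79419190-79419525, with 6.84, 5.94 and 8.32, was seen in all 3 4-cell control libraries, in 2 ESC libraries and in no GV oocyte, morula or ICM library. A similar region, chr8:48186551-48186942, had values of 7.60, 6.88 and 6.67, with peaks in all 3 4-cell control libraries, 1 2-cell control library and 1 ESC library. At chr5:14357911-14358293 the values were 8.86, 5.55 and 6.51, and the other peaks were in 1 morula and 2 ICM libraries.

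The widest TBE-only regions were broad and shallow. The widest, chr5:118302741-118308050, spanned 5310 bp with fold enrichments of 2.49, 1.95 and 4.19, and recurred in 1 ICM and 2 ESC libraries. The second, chr28:42022474-42027769, spanned 5296 bp with 3.08, 2.53 and 3.34 and recurred in 12 libraries, among them all 3 GV oocyte and all 3 morula libraries. The third, chr5:118701913-118706929, spanned 5017 bp with 2.42, 1.87 and 2.91 and recurred in all 3 GV oocyte libraries and in no others. All 3 lay within 5 Mb of the distal end of their chromosome, at 1.78, 3.91 and 1.38 Mb from it.

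The regions were specific to blocked embryos at the 8-cell stage but not in the series. A peak of at least 1 of the other 24 libraries overlapped 5098 of them, and 1327 or 20.7% had none. Of all merged regions, 40.8% had none. Over the 18 untreated libraries, 941 TBE-only regions (14.6%) had a peak only before the 8-cell stage, in GV oocytes, 2-cell or 4-cell controls, against 4.58% of all merged regions. A peak only after it, in morulae, ICM or ESC, was found for 1631 (25.4%, against 37.7% of all), and a peak on both sides for 2353 (36.6%, against 15.9% of all). Control-only regions were distributed differently. Only 0.363% of them had a peak solely before the 8-cell stage and 73.8% had one solely after it. A peak in 2- or 4-cell TBE libraries and in none of the 18 untreated libraries was found for 173 TBE-only regions. That was 2.69%, against 0.986% of all merged regions. It was 2.36% of regions with 2 TBE peaks and no control peak and 1.09% of those with 3 TBE peaks and 1 control peak.

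Recurrence of a single region was mostly sparse. The median TBE-only region had a peak in 2 of the 24 libraries, 1288 regions had a peak in 6 or more and 119 in 12 or more. The count of libraries rose with width, with a rho of 0.20, and showed no trend with mean fold enrichment, with a rho of −0.01. Of the 1612 narrowest regions, 211 to 523 bp wide, 71.7% had a peak in another stage, and of the 1606 widest, 1471 to 5310 bp, 87.2% did.

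The region seen most often lay on an unplaced scaffold, in 23 of the 24 libraries, with fold enrichments of 8.60, 5.23 and 8.31 in the TBE replicates. Among placed regions, chr22:33859217-33860939 and chr28:8782836-8784677 each had a peak in 17 libraries, including all 3 each of GV oocyte, morula, ICM and ESC. Their mean fold enrichments were 3.73 and 3.04. The region chr25:26192918-26194055 followed with 16 libraries and a mean of 4.14. These regions had a peak nearly everywhere except in the 8-cell control lists and the short 2-cell lists. Peaks in 4 or more of the 6 2- and 4-cell TBE libraries were found at 4 TBE-only regions, all on unplaced scaffolds, and 26 regions tied at 3 libraries. The one with the highest mean fold enrichment among those 26, chr16:54451505-54452827, had fold enrichments of 6.88, 3.50 and 7.31 at the 8-cell stage. It had peaks in all 3 GV oocyte libraries, 1 4-cell control, 1 2-cell TBE and 2 4-cell TBE libraries, and in no morula, ICM or ESC library.

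In the GV oocyte, 17.1%, 19.2% and 17.9% of the TBE-only regions had a peak in replicates 1 to 3. The same libraries had a peak at 8.76%, 9.12% and 9.55% of all merged regions and at 1.80%, 1.97% and 2.39% of control-only regions. Every oocyte library therefore overlapped a larger share of the TBE-only set than of either of these sets. Regions in all 6 lists were overlapped more often still, at 72.9%, 69.7% and 70.3%. At least 1 oocyte library had a peak at 2072 TBE-only regions, or 32.2%, against 14.7% of all merged regions. All 3 had one at 413, or 6.43%, against 4.86% of all merged regions.

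The 4-cell controls gave the same order. Their shares were 22.8%, 12.5% and 6.89% of TBE-only regions, 9.47%, 5.18% and 3.17% of all merged regions and 1.48%, 0.566% and 0.314% of control-only regions. At least 1 of them had a peak at 33.4% of TBE-only regions and 12.3% of all merged regions. With a peak in all 3 the order turned, to 0.887% of TBE-only regions and 1.50% of all merged regions. The 2-cell controls, with lists of 1002, 1262 and 6440 peaks, covered 0.311%, 0.389% and 2.12% of TBE-only regions. At least 1 of them had a peak at 2.60%, against 1.68% of all merged regions, and all 3 did at 0.0467% against 0.0660%.

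The order turned at the morula. Its libraries had a peak at 15.3%, 35.6% and 22.8% of TBE-only regions, at 27.4%, 37.3% and 32.4% of all merged regions, and at 63.4%, 66.9% and 67.5% of control-only regions. At least 1 morula library had a peak at 41.2% of the TBE-only regions and at 42.6% of all merged regions. All 3 had one at 10.7% and 23.0%. In the ICM the shares of TBE-only regions were 16.3%, 14.0% and 22.01%, near the 16.1%, 16.3% and 20.2% of all merged regions. At least 1 ICM library had a peak at 30.6%, against 25.9% of all, and all 3 did at 6.88% against 10.7%. In ESC, 7.67%, 33.1% and 24.7% of TBE-only regions had a peak, above the 7.09%, 21.1% and 15.9% of all merged regions and the 3.59%, 12.5% and 8.29% of control-only regions. At least 1 ESC library had a peak at 39.0%, against 24.3% of all, and all 3 did at 6.49% against 6.30%.

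**Figure D1:**
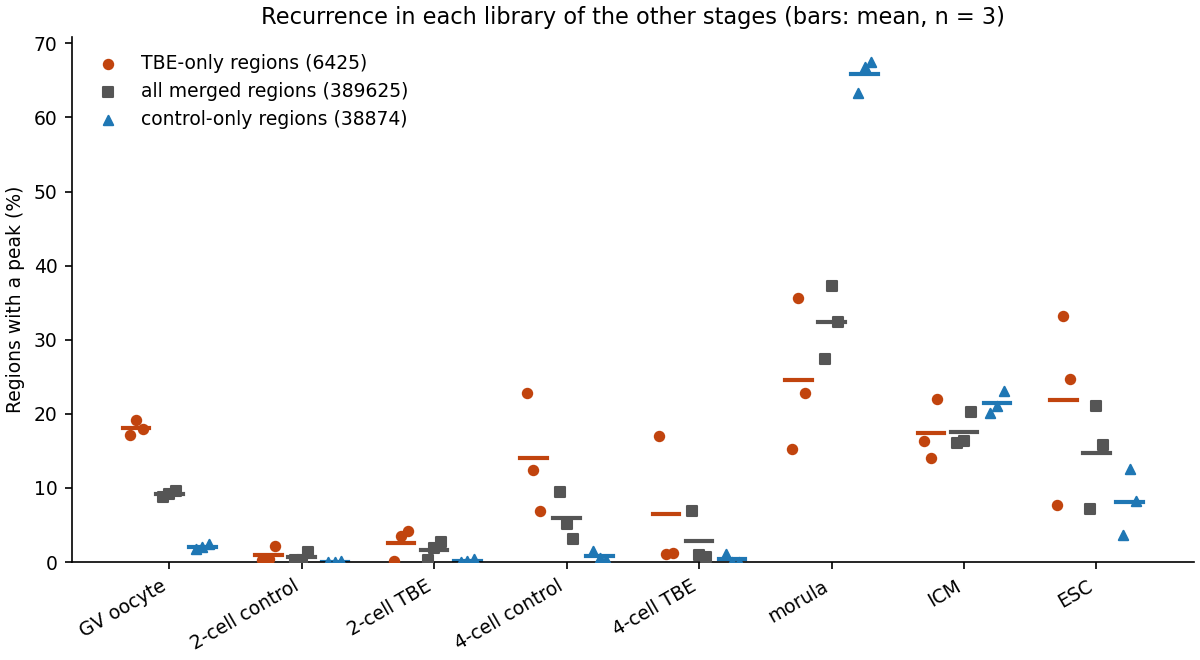
Percentage of regions with a peak in each library of the other stages, for TBE-only regions (circles), all merged 8-cell regions (squares) and control-only regions (triangles), with a bar at the mean of 3 libraries. In GV oocytes the TBE-only regions lie highest (17.1% to 19.2%) and in morulae the control-only regions do (63.4% to 67.5%).

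Where a TBE-only region recurred, the median fold enrichment of the overlapping peaks was lower than at all merged regions in 21 of 24 libraries, in some by little. In 4-cell control replicate 2 it was 3.81 against 3.85. In the morula it was 3.69, 3.67 and 3.88, against 4.47, 4.38 and 4.55. In GV oocytes it was 3.78, 3.83 and 3.62, against 4.22, 4.10 and 3.87. The exceptions were 2-cell TBE replicate 1 and 2-cell control replicates 1 and 2, the shortest lists of the series.

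Recurrence also followed the 2 cutoffs of the rule. In all 24 libraries the percentage at TBE-only regions was above that at regions with 2 TBE peaks and no control peak, and below that at regions with 3 TBE peaks and 1 control peak. In morula replicate 1 the 3 values were 9.95%, 15.3% and 36.5%, and in GV oocyte replicate 1 they were 8.90%, 17.1% and 29.8%. Median widths rose in the same order, from 841 to 951 to 1229 bp.

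To compare stages whose lists differ in length, each library was given a recurrence ratio, its percentage at TBE-only regions divided by its percentage at all merged regions, taken as a log2 value. Higher values mean that the library has a peak more often at the TBE-only set than at the average 8-cell region. Any overlap of 1 bp counted, and TBE-only regions were wider, with a median of 951 bp against 598 bp for all merged regions. Over the 9 untreated libraries before the 8-cell stage the ratio ran from 1.33 to 2.41 with a median of 1.95, and over the 9 after it from 0.560 to 1.57 with a median of 1.01. The groups overlapped, since ESC replicates 2 and 3 (1.57 and 1.56) lay above all 3 2-cell controls (1.33, 1.35 and 1.502). The mean log2 ratio was higher before the 8-cell stage by 0.91, a 1.88-fold difference, and an exact two-sided permutation test over libraries gave p = 0.000411 (n = 9 and 9). Adjusted over the 7 main permutation tests reported here by the Benjamini-Hochberg method, this exact p was 0.00288, and the other adjusted values were 0.595 or more.

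That p treats 3 libraries of a stage as independent samples. With the 6 stage means as the units, every stage before the 8-cell stage lay above every stage after it, and the exact permutation p was 0.1, the smallest that 3 against 3 allows. The plain percentages ran the other way. The percentage of TBE-only regions with a peak, before minus after the 8-cell stage, was −10.3 points on average (p = 0.028, exact permutation test, n = 9 and 9), and the later lists were longer, with 39333 to 207459 peaks against 1002 to 44678. The cause of this reversal was not tested.

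The reference also set the level of the ratio. All merged regions include those with control peaks, which the TBE-only set lacks by its rule and which morulae cover most. Of the 186850 merged regions with no 8-cell control peak, 151888 had a peak in a single TBE list, and 90.1% had one of TBE replicate 2. Against these 186850 regions, TBE-only regions were covered more often in all 24 libraries, morulae included. In morula replicates 1 to 3 the share of regions with no control peak was 6.84%, 16.5% and 9.95%, below the 15.3%, 35.6% and 22.8% of TBE-only regions. TBE-only regions need peaks of 3 lists, so the 2 sets were unlike by rule and this order is a description only. With this reference, chosen after seeing the data, the difference between stages before and after stayed at 0.84 on the log2 scale (p = 4.11e-05, exact permutation test, n = 9 and 9, the smallest p the arrangements allow). All merged regions weighted to the widths of the TBE-only set, a reference also chosen after seeing the data, gave a smaller difference of 0.67 (p = 0.00354, the same exact permutation test). Relative to all merged regions, neighbouring sets also favoured oocytes over morulae. Regions of all 6 lists had a peak at 69.7% to 72.9% in GV oocytes and 91.7% to 96.9% in morulae. Those with 3 TBE peaks and 1 control peak had 28.9% to 30.7% and 36.5% to 64.6%. Those with 2 TBE peaks and no control peak had 8.90% to 11.1% and 9.95% to 24.7%. All merged regions had 8.76% to 9.55% and 27.4% to 37.3%. The difference between stages was not tested for these sets.

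**Figure D2:**
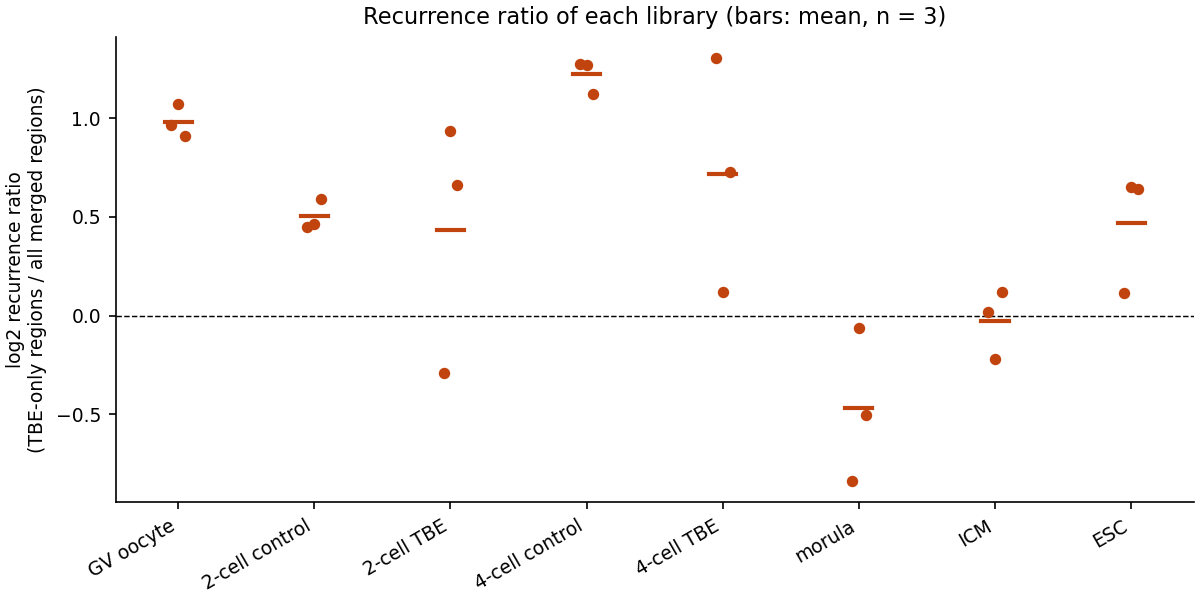
Log2 recurrence ratio of each library (percentage of TBE-only regions with a peak over percentage of all merged regions), with a bar at the mean of 3 libraries and a dashed line at 0. The 4-cell controls lie highest as a group (1.12 to 1.27) and the morulae lowest (−0.84 to −0.06).

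Whether blocked embryos of earlier stages already held these regions was asked in the 2- and 4-cell TBE libraries, which the rule did not use. In 4-cell TBE the regions with a peak were 17.04%, 1.07% and 1.17% in replicates 1 to 3, from lists of 32260, 4166 and 3094 peaks. Replicate 1 stood near the 4-cell controls and the other replicates far below them. At least 1 4-cell TBE library had a peak at 18.2% of TBE-only regions, against 7.31% of all merged regions. For a peak in all 3 the shares were 0.0623% and 0.255%. The log2 recurrence ratios were 1.30, 0.12 and 0.72 in 4-cell TBE and 1.27, 1.27 and 1.12 in 4-cell controls, which overlap. The mean was lower in 4-cell TBE by 0.50, and the difference was within the spread of the libraries (p = 0.4, exact two-sided permutation test, n = 3 and 3, where the smallest possible p is 0.1).

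In 2-cell TBE the shares were 0.171%, 3.49% and 4.20%, from lists of 925, 8118 and 11083 peaks. At least 1 of these libraries had a peak at 7.44% of TBE-only regions, against 3.73% of all merged regions. For a peak in all 3 the shares were 0.0311% and 0.120%. The log2 ratios were −0.29, 0.94 and 0.66, against 0.45, 0.47 and 0.59 in 2-cell controls, and the TBE values enclosed those of the controls. The mean differed by −0.07 (p = 1, exact two-sided permutation test, n = 3 and 3). The ratio of 2-cell TBE replicate 1 rests on 11 regions with a peak. Without this library the 2-cell difference turned to 0.29 in favour of TBE.

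Both stages in 1 test, with labels exchanged within each stage, gave a mean difference of −0.29 (p = 0.31, exact two-sided permutation test over 400 arrangements, n = 6 and 6). Against regions with no 8-cell control peak, the difference was 0.26 in favour of TBE (p = 0.06, the same exact permutation test). The sign of the TBE effect before the 8-cell stage therefore turned with the reference, and neither value passed 0.05. The TBE effect at the 2-cell stage exceeded that at the 4-cell stage by 0.44 on the log2 scale, with p = 0.425 in the exact permutation test of the difference.

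TBE-only regions gathered near the distal ends of the chromosomes. Bovine autosomes are acrocentric, with the centromere at the start of the numbered sequence, so the distal end is the telomere of the long arm. It was placed at the furthest peak end of each chromosome over all 30 lists. Of the 6351 TBE-only regions on the 29 autosomes and X, 1340 or 21.1% lay within the last 5 Mb, against 7.90% of all merged regions, 2.71% of control-only regions and 9.70% of regions in all 6 lists. The sets just outside the rule shared the trait, with 18.7% of regions with 3 TBE peaks and 1 control peak and 16.9% of those with 2 TBE peaks and no control peak. This pattern was noticed in the data and the 5 Mb window was chosen afterwards.

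The share of merged regions that were TBE-only fell with distance from that end. It was 4.90% in the last 1 Mb, 4.89% from 1 to 2 Mb, 4.05% from 2 to 5 Mb, 2.16% from 5 to 10 Mb, 1.41% from 10 to 20 Mb and 1.31% beyond 40 Mb. Control-only regions ran the other way, from 3.32% in the last 1 Mb to 11.4% beyond 40 Mb. No such rise was seen at the start of the chromosomes, where 1.42% of the regions in the first 1 Mb and 1.35% of those from 2 to 5 Mb were TBE-only.

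**Figure D3:**
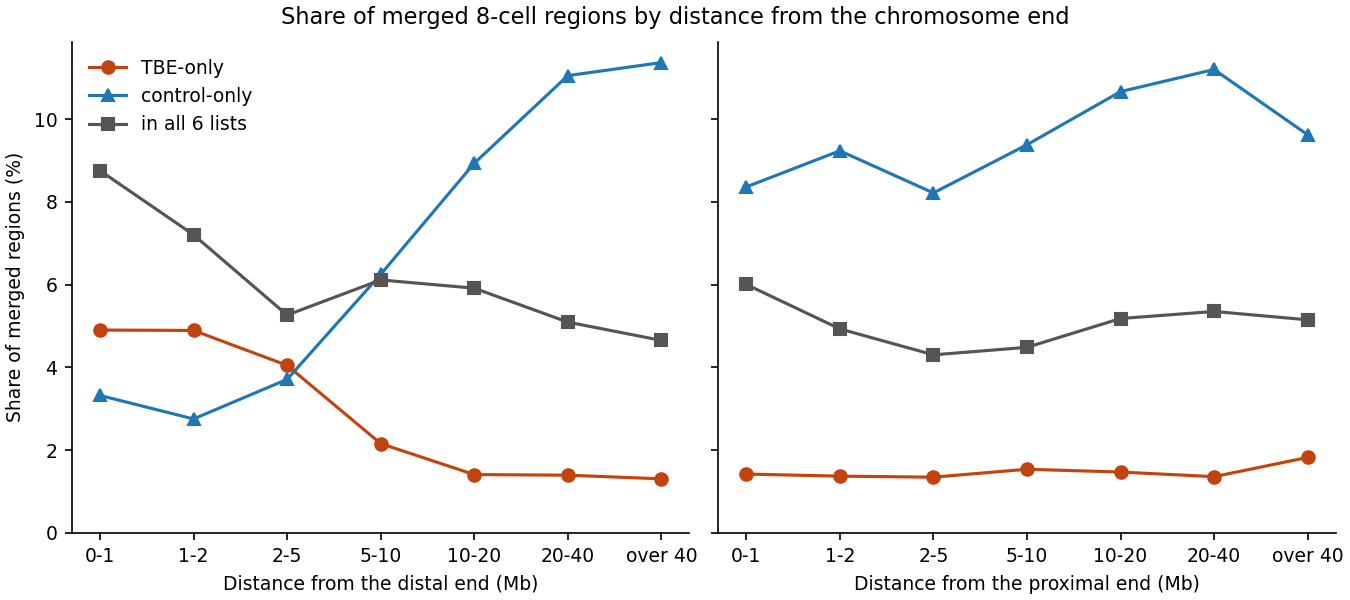
Share of merged 8-cell regions that were TBE-only (circles), control-only (triangles) or in all 6 lists (squares), by distance in Mb from the distal end (left) and from the proximal end (right) of the chromosome. TBE-only regions fall from 4.90% to 1.31% away from the distal end while control-only regions rise from 3.32% to 11.4%.

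The distal excess was present on each chromosome. The share of TBE-only regions in the last 5 Mb was above the share of all merged regions there on 30 of 30 chromosomes, and the share of control-only regions was below it on 30 of 30. For TBE-only regions it ran from 9.78% on chromosome 2 to 41.5% on chromosome 26. The corresponding shares of all merged regions were 5.03% and 11.9%.

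The excess did not rest on 1 8-cell library, as leaving out each of the 6 in turn gave 16.2% to 21.0% of TBE-only regions in the last 5 Mb. With peaks of at least 3-fold enrichment only, it was 12.5% against 6.66% of all merged regions, the lowest value among the alternatives for that window. Distal TBE-only regions were wider and weaker than the others, with a median width of 1141 against 915 bp and a median mean fold enrichment of 3.14 against 3.42. All merged regions were also wider in the last 5 Mb. Their median widths were 760, 775 and 717 bp at 0 to 1, 1 to 2 and 2 to 5 Mb from the end. Beyond 40 Mb their median was 571 bp.

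Counted per Mb of chromosome, the TBE lists grew denser toward this end and the control lists changed little. From beyond 40 Mb to the last 1 Mb, the density went from 27.3 to 84.1 peaks per Mb in TBE replicate 1, from 83.5 to 147 in replicate 2 and from 16.0 to 40.6 in replicate 3. In the control libraries it went from 45.8 to 49.9, from 47.6 to 46.3 and from 57.7 to 55.0. TBE-only regions went from 1.79 to 9.20 per Mb and all merged regions from 137 to 188 per Mb. Control-only regions, which by their rule lie away from TBE peaks, went from 15.6 to 6.23 per Mb while the control lists themselves did not thin out. These densities were added after seeing the data.

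Whole peak lists showed how far other stages shared this feature. The last 5 Mb made up 5.71% of the length of the chromosomes and held 14.2%, 9.80% and 11.3% of all peaks in 8-cell TBE and 5.97%, 5.53% and 5.30% in 8-cell controls. In GV oocytes it was 12.2%, 13.6% and 12.3%, in the range of the blocked 8-cell embryos. The 4-cell controls had 10.2%, 8.99% and 8.95%, and the 2-cell controls 9.13%, 8.70% and 7.99%. Morulae had 6.43%, 6.86% and 6.95%, ICM 7.58%, 6.07% and 7.09%, and ESC 5.92%, 6.45% and 6.69%. No untreated library from the 8-cell stage on reached the lowest value of the stages before it.

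Blocking transcription before the 8-cell stage did not shift this share beyond the spread of the libraries. In 4-cell TBE it was 9.35%, 8.62% and 7.73%, with a mean difference from 4-cell controls of −0.809 percentage points (p = 0.4, exact two-sided permutation test, n = 3 and 3). In 2-cell TBE it was 7.52%, 9.41% and 9.52%, higher than in 2-cell controls by 0.212 points (p = 0.8, the same exact test). With 3 libraries a group neither comparison could go below 0.1, so no difference could have passed 0.05.

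**Figure D4:**
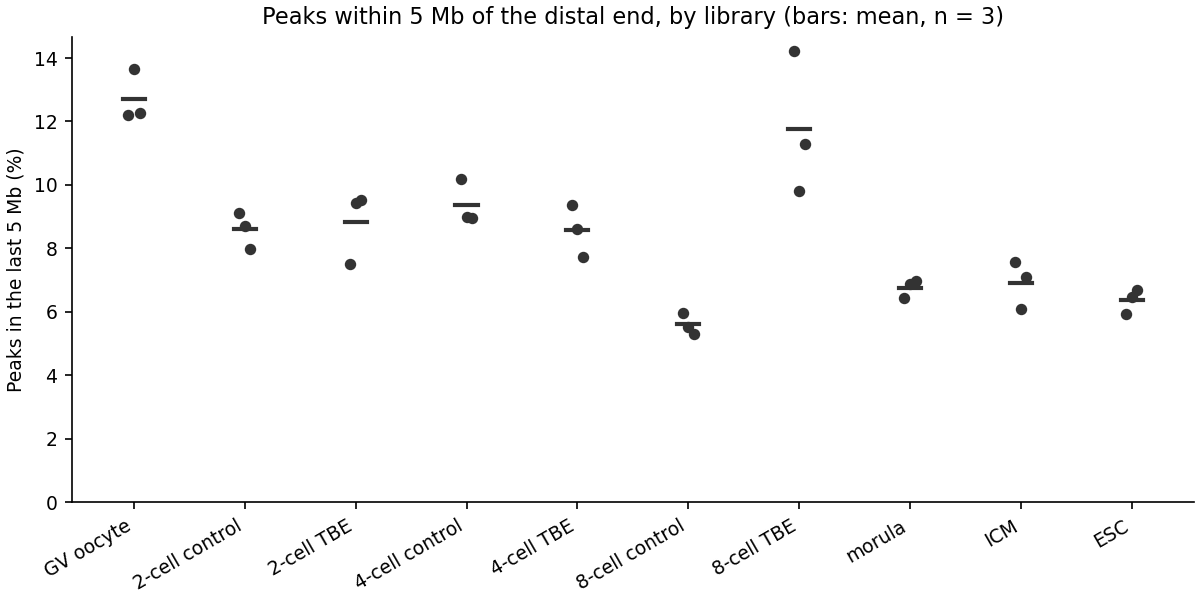
Percentage of all peaks of a library that lie within 5 Mb of the distal chromosome end, 1 point per library with a bar at the mean of 3. The 8-cell TBE libraries (9.80% to 14.2%) lie with the GV oocytes (12.2% to 13.6%) and above the 8-cell controls (5.30% to 5.97%).

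Distal TBE-only regions recurred more often in the oocyte than the other TBE-only regions. In GV oocyte replicates 1 to 3, 25.7%, 31.6% and 25.8% of the distal ones had a peak, against 14.4%, 15.4% and 15.6% of those elsewhere. All merged regions of the last 5 Mb also had more oocyte peaks, at 13.6%, 15.96% and 15.1% against 8.23%, 8.41% and 8.94% elsewhere. In 4-cell controls the distal and other TBE-only regions were alike, at 25.4%, 11.6% and 6.12% against 21.8%, 12.5% and 6.84%. In the ICM they were also close, at 18.1%, 12.9% and 24.0% against 15.9%, 14.1% and 21.5%. In morulae the distal ones were somewhat higher, at 17.3%, 38.9% and 26.3% against 14.9%, 35.2% and 22.1%. All merged regions ran the other way there, at 23.5%, 34.8% and 29.7% in the last 5 Mb against 27.7%, 37.5% and 32.6% elsewhere.

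Among chromosomes, the TBE-only share of merged regions was highest on chromosomes 24, 23 and 27, at 2.77%, 2.60% and 2.57%. These stood for 283 of 10217, 236 of 9078 and 196 of 7612 merged regions. It was lowest on X, 10 and 28, at 0.756%, 1.05% and 1.16%, or 84 of 11113, 172 of 16346 and 71 of 6144. Without the last 5 Mb the shares of the 3 highest were 2.35%, 2.17% and 2.49%, and those of the 3 lowest were 0.627%, 0.907% and 0.897%. Chromosome 27 then lay above 24, and chromosome 22, at 0.879%, joined X and 28 as the 3 lowest. Unplaced scaffolds held 74 TBE-only regions on 52 scaffolds, 3.17% of their 2333 merged regions. Repeated sequence is common on such scaffolds, and the regions there are given as uncertain in position.

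**Figure D5:**
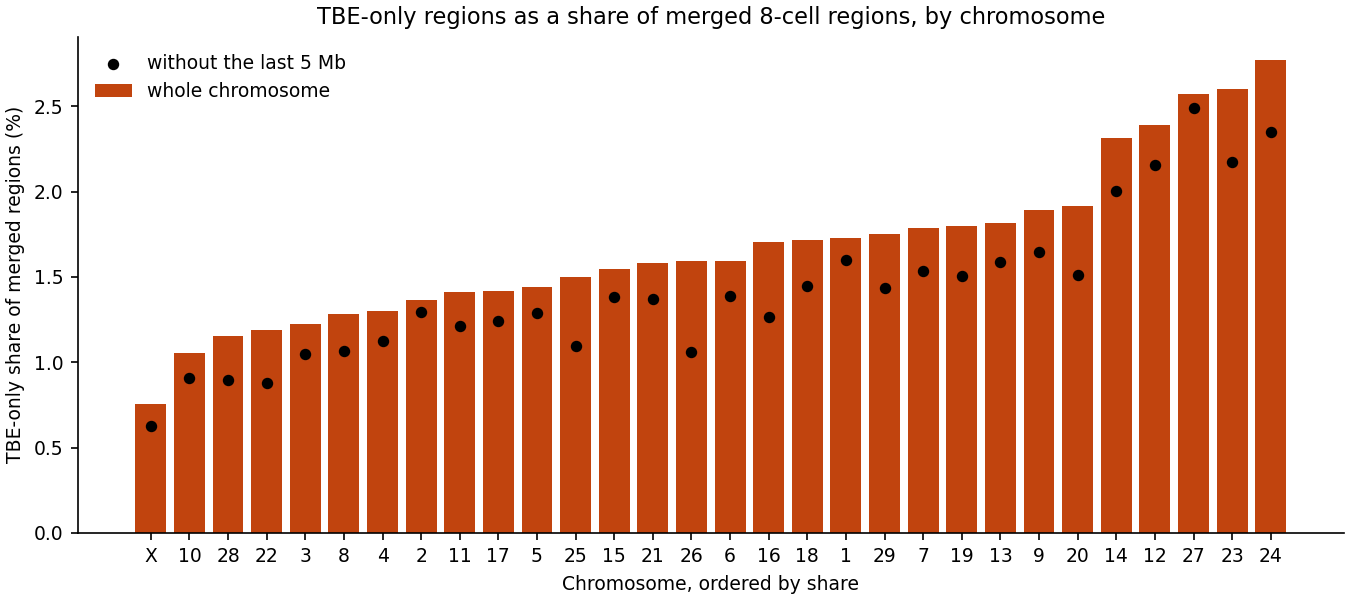
TBE-only regions as a percentage of the merged 8-cell regions of each chromosome, in increasing order, with bars for the whole chromosome and points for the chromosome without its last 5 Mb. The share ranges from 0.756% on X to 2.77% on chromosome 24.

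TBE-only regions were spread widely, with local groups. The median gap between neighbours on a chromosome was 139 kb, the middle of the distribution ran from 39.96 to 440 kb and the longest gap was 12.4 Mb. A neighbour within 10 kb followed 498 of them, or 7.88%. Gap length depends on the number of regions in a set, so these values are a description. All merged regions had a median gap of 3.83 kb, with 84.9% of gaps within 10 kb. Control-only regions had 33.9 kb and 21.8%, and regions with 2 TBE peaks and no control peak had 36.1 kb and 20.1%. Of 2642 windows of 1 Mb, 760 held no TBE-only region, the median held 2 and the fullest held 25. In 89 windows with 10 or more there were 1208 TBE-only regions, 19.0% of those on chromosomes, and 56 of these windows were centred in the last 5 Mb.

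The fullest window lay on chromosome 24, from 59000001 to 60000000, with 25 TBE-only and 11 control-only regions among 239 merged regions. It was centred 2.80 Mb from the distal end. On chromosome 23, the windows from 46000001 to 47000000 and from 50000001 to 51000000 held 22 and 20 TBE-only regions with 5 and 3 control-only ones. These windows were picked for holding the most TBE-only regions, so their excess over control-only ones was partly set by the choice. The order was shared by the last 5 Mb of the chromosomes as a whole. TBE-only shares were 4.90%, 4.89% and 4.05% at 0 to 1, 1 to 2 and 2 to 5 Mb from the distal end. Control-only shares there were 3.32%, 2.75% and 3.71%.

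Over 100 kb, the tightest group was not distal. It lay at chr27:6968347-7061506, 38.6 Mb from the distal end, and held 9 TBE-only regions among 23 merged regions, with no control-only region. Their mean fold enrichments ran from 2.98 to 4.38, their widths from 506 to 2767 bp, and 7 of the 9 had a peak in another stage. Groups of 8 followed at chr23:46446847-46546533 and at chr24:59330611-59425209, among 27 and 25 merged regions with 0 and 1 control-only regions.

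TBE-only regions overlap no 8-cell control peak by their rule, so their distance from one was partly set in advance. The distance to the nearest 8-cell control peak had a median of 3737 bp and a middle range of 1630 to 7908 bp. It was 1 kb or less for 870 regions, 13.5% of the 6405 on sequences with a control peak, and over 10 kb for 1179 regions, or 18.4%. Control-only regions lay at like distances from TBE peaks, with a median of 3443 bp, 16.6% within 1 kb and 19.6% over 10 kb away.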

How the data were processed

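The data were the MACS2 broad peak lists of 30 libraries, 1 list per library, as deposited. Per the study's methods and the submitters' processing notes, the authors trimmed reads with Trim Galore and Cutadapt, used BWA 0.7.17 to place them on the ARS-UCD1.2 assembly, removed duplicate, mitochondrial and low-quality alignments (SAMtools 1.7) and called broad peaks with MACS2 2.1.1 at a q value cutoff of 0.05. The deposited fold enrichment is a ratio of reads to local background. The authors' lists also give −log10 p and −log10 q for each peak, used here to rank and to filter peaks, and a score that was not used. Read depth is not part of the lists, so no interval or detection floor could be set, and a missing peak is an absent call, not a measured absence of accessibility.

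Peaks of the 6 8-cell lists were merged on 1 bp of overlap, and a region had a peak of a library when at least 1 bp overlapped. In log2 recurrence ratios 0.5 was added to both overlap counts and 1 to both totals. Groups came from the sample titles, and no sample was left out. Tests between libraries were exact, two-sided permutation tests, within stage where 2 stages were combined. Replicates of oocytes and embryos are pools from separate collections, and those of ESC are samples of cultured lines, whose spread may be technical. The regions to describe, the lists and the tests were chosen with earlier results of these data known. Named regions were the 10 with the highest mean fold enrichment, the 5 seen in most other libraries, the 5 seen in most 2- and 4-cell TBE libraries (ties in the order of mean fold enrichment), the 3 widest, the 3 places with most members in 100 kb and the 3 chromosomes at each extreme of the share. Of these, regions on unplaced scaffolds are given without position. Alternatives were peak filters, 50% overlap, merging over 100 bp, autosomes only, lists cut to equal length, other reference regions and leaving out libraries or stages. Genes, promoters, base composition, motifs and sequences of the regions were not analysed here. The interval functions and the permutation tests were checked on simulated lists against a direct count, with no mismatch. The software was pandas 2.3.3, numpy 2.4.6 and scipy 1.17.1 under Python 3.11.15, with figures drawn in matplotlib 3.10.9.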

Additional observations from a re-analysis of the deposited data

How the results depend on the processing

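The number of TBE-only regions moved from 6425 to 2075 with −log10 q of at least 3, to 2572 with a fold enrichment of at least 3 and to 3535 with 50% overlap, and ran from 7174 to 29655 when each 8-cell library was left out. Their share in the last 5 Mb moved from 21.1% to 12.5% with a fold enrichment of at least 3, was 9.24% for the last 2 Mb, and ran from 16.2% to 21.0% without each library. The log2 difference before against after the 8-cell stage was −10.3 as percentage points and 0.91 with p = 0.1 (exact permutation test) over stage means. The other alternatives kept it positive with p of 0.015 or less. For 4-cell TBE against control it turned to 0.24 with the control-only reference, 0.018 with 50% overlap, 0.77 with equal lists and 0.032 against regions in no control list, with −0.80 to −0.21 over libraries left out. At the 2-cell stage it turned to 1.68 percentage points, and on the log2 scale to 0.27 (control-only reference), 0.47 (50% overlap) and 0.50 (regions in no control list), with −0.32 to 0.29 over libraries left out. Both stages together turned to 0.25 with the control-only reference, 0.25 with 50% overlap and 0.26 against regions in no control list. The distal share of peaks turned with −log10 q of at least 3, to 0.0950 points for 4-cell and −0.674 for 2-cell embryos, and with equal lists to −0.384 for the latter. It ran from −0.141 to 0.862 points at the 2-cell stage without each library. The cause was not tested for any of these. The width-standardised and no-control references, the stage means and all distal results were chosen after seeing the data.

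With a replicate block (paired by number) the differences in recurrence kept their values of −0.50, −0.07 and −0.29 and those in distal share −0.809 and 0.212, with no p under 0.05. Same-numbered TBE and control libraries did not deviate together, with correlations from −0.13 to 0.12 over 9 pairs against −0.15 to 0.19 for different numbers, so the numbers were not used as pairs.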
